A study of Mus musculus with 12 samples.

Results

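A set of 9 receptor genes of the tumour necrosis factor (TNF) receptor superfamily were followed through the divisions of mouse B cells. They were Tnfrsf13c (BAFFR), Tnfrsf13b (TACI), Tnfrsf17 (BCMA), Cd40, Fas, Cd27, Tnfrsf1a (TNFR1), Tnfrsf1b (TNFR2) and Tnfrsf21 (DR6), taken by symbol, and each was found once, as 9 of the 21761 genes in the deposited tables. RNA was measured in 12 libraries, 2 in each of 6 sorted groups. Splenic B cells that were B220+ and CD43- were stained with a dye that is diluted at each division (CFSE or CTV), transferred into uMT mice, and exposed to LPS, a bacterial product that activates B cells, and 40000 cells of each group were sorted on day 3.

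The 6 groups differed only in the gate by which they were sorted. Div0, Div1, Div3 and Div5 cells had divided 0, 1, 3 or 5 times by dye content. Div8neg and Div8pos cells had divided 8 times or more and were CD138- or CD138+, CD138 being the surface protein (encoded by Sdc1) that marks plasmablasts and plasma cells. All groups share the transfer, the LPS, the female sex, the age of 8 weeks and the 2 hosts, numbered 196 and 197, each of which gave 1 library to every group. The design text calls the donors naïve C57/BL6J mice, while the strain label reads B6.SJL-Ptprca Pepcb/BoyJ. uMT mice make no mature B cells of their own but keep their T cells and myeloid cells, and there was no group before transfer or without LPS, so Div0 cells are undivided cells of a challenged host. Whether both hosts received cells of the same donors is not given, so p-values here measure the spread between 2 hosts.

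TNF receptors are surface proteins that bind trimeric ligands and signal through TRAF adapters to NF-kB, or, where they carry a death domain, also to caspases. BAFFR, TACI and BCMA form a small group that share the ligands BAFF and APRIL. BAFFR binds BAFF and keeps mature B cells alive, TACI binds both ligands and restrains the B cell pool while promoting class switching, and BCMA binds APRIL best and supports the survival of plasma cells. CD40 receives T cell help, FAS triggers apoptosis in activated B cells, CD27 is a costimulatory receptor that binds CD70, TNFR1 and TNFR2 bind TNF and lymphotoxin alpha, and DR6 is a death-domain receptor that restrains B cell responses.

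The region just before the start of each of the 3 genes of the BAFF system is shown because their messages move in different directions below. Each sequence is the 250 bases upstream of the start that RefSeq gives on GRCm38.p6, written along the strand of the gene. Capitals mark matches to a loose NF-kB motif (GGG and CC with any 5 bases between them) or to the core of the motif of BLIMP1 (GNGAAAG), the plasma cell repressor encoded by Prdm1, on either strand. The windows are chr15:82224381-82224630 on the minus strand for Tnfrsf13c, chr11:61126505-61126754 on the plus strand for Tnfrsf13b and chr16:11313559-11313808 on the plus strand for Tnfrsf17.
Tnfrsf13c: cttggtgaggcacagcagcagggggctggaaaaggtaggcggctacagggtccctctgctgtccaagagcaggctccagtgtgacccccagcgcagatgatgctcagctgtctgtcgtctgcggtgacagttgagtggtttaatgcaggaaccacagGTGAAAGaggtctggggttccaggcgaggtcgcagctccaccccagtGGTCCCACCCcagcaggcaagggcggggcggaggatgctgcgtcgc
Tnfrsf13b: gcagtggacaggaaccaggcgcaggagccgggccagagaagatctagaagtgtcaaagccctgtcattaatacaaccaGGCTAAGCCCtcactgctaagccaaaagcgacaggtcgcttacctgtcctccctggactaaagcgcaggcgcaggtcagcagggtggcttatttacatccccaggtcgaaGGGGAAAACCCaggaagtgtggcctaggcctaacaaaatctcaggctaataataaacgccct
Tnfrsf17: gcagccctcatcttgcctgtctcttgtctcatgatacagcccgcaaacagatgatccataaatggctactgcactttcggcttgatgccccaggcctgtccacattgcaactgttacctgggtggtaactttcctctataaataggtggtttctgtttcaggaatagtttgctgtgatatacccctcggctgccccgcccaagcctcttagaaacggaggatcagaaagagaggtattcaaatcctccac

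The Tnfrsf13c window held 1 NF-kB match, 46 bases before the start on the minus strand of the gene, and 1 BLIMP1 core match at 93 bases. Tnfrsf13b held NF-kB matches at 172 bases and, overlapping each other, at 62 and 61 bases, and no BLIMP1 core match. Tnfrsf17 held no match to either motif, nor to the octamer (ATGCAAAT), an ETS-IRF composite (GGAA and GAAA with any 2 bases between them) or an XBP1 core (GACGTG). The NF-kB letters occur in 45.8% of the 32851 promoter windows of this length and the BLIMP1 core in 19.4%, against 1.6% for the octamer, 2.3% for the composite and 5.2% for the XBP1 core. Of the 9 receptor genes, 8 matched the promoter table, and Cd40 did not. A match is a description of letters, and binding was not measured.

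Values are given on 2 scales. CPM, the reads of a gene scaled to the gene counts of its library with TMM normalization, places a message relative to all other messages of its library, and it was tested with edgeR's quasi-likelihood test. mRNAs per cell are the authors' values, set by synthetic ERCC RNAs added to each sample before extraction, and were tested with limma on log2 of the value plus 0.1, a scale that understates changes of low genes. Adjusted p-values are Benjamini-Hochberg values over the 12049 genes tested, and "rose" and "fell" are used of changes at an adjusted p under 0.05. Errors are SD over n = 2 hosts. The scales part because, by the spike-ins, cells of most later groups held more RNA than the group before. On the per-cell scale the median gene was higher by 0.63 in log2 in Div1 against Div0 and by 1.41 in Div8neg against Div0. It was higher by 0.49 in Div8pos against Div8neg, and differed by -0.07 in Div3 against Div1. In such bulk samples, fewer cells with a message and less of it in each cell cannot be told apart.

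Gene counts per library ran between 11551585 and 14975133, and spike-in counts between 113723 and 683173. B cell markers were detected in all groups: none of 5 (Ms4a1, Cd79a, Cd79b, Pax5, Cd22) was at 0. Their sum was 670.5 to 699.7 CPM in Div8pos, far below the 4227 to 6808 CPM in Div0 to Div8neg. Sdc1, which encodes the sorted CD138, averaged 320.1 CPM in Div8pos and 4.72 CPM in Div8neg, and the sum of 5 plasma cell markers was 5069 to 5150 CPM in Div8pos, against 643.1 to 769.5 CPM in Div8neg. Of 6 T cell markers Cd3e, Cd3d and Cd3g each averaged at most 0.438 CPM in every group, with Cd3g at 0 in Div8pos, and the sum of the 6 was 2.08 to 56.6 CPM, most of it Lck, which averaged 53.3 CPM in Div1 and 0.892 in Div8pos. The 4 NK cell markers summed to at most 1.15 CPM. The 5 dendritic cell markers summed to 2.32 to 71.5 CPM, with Itgax averaging 55.5 CPM in Div5, and Clec9a was at 0 in every group but Div0. Of 7 myeloid markers none was at 0, and their sum was 9.75 to 157.7 CPM, with the top in Div8neg. Most of that top was Itgam, which averaged 118.1 CPM in Div8neg and 11.0 in Div0. Each of the other myeloid markers had a lower mean in Div8neg than in Div0.

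In mRNAs per cell, which are scaled for exon length, BAFFR was the most abundant of the 3 BAFF-system messages in Div0 to Div8neg. TACI was the most abundant in Div8pos. By raw reads BAFFR stayed ahead there, with 52.33% of the reads of the 3 genes against 44.98% for TACI. BCMA was close to undetected until the CD138+ gate. Together the 3 receptors averaged 24.8 ± 2.3 mRNAs per cell in Div0, 43.6 ± 8.6 in Div1 and 44.5 ± 6.1 in Div3. Later averages were 64.9 ± 7.1 (Div5), 82.5 ± 2.9 (Div8neg) and 112.9 ± 10.9 (Div8pos). Total mRNAs per cell were also higher late: 27410 and 33580 for Div0 (hosts 196 and 197), against 174000 and 152000 for Div8pos. A higher receptor sum therefore does not by itself set these 3 genes apart from other messages.

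**Figure D1:**
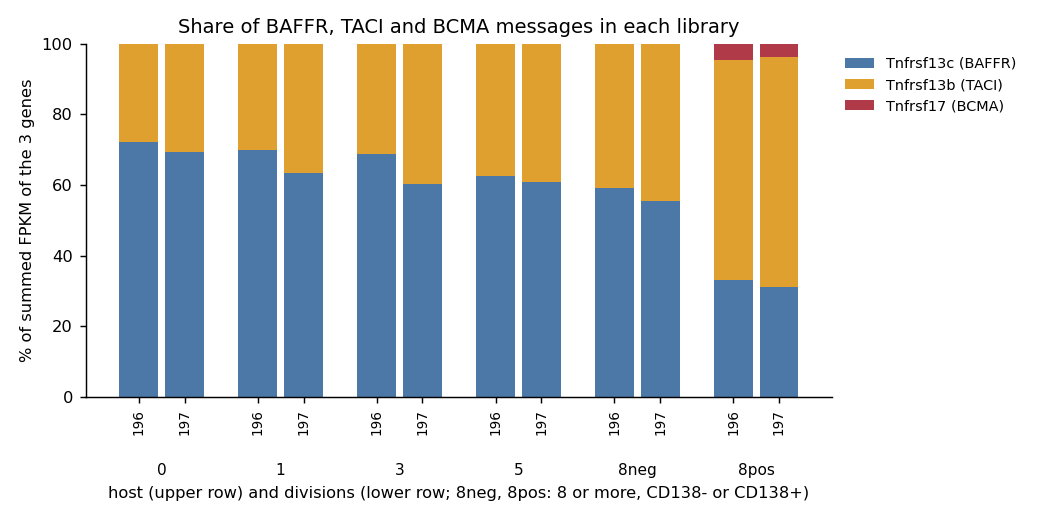
Share of Tnfrsf13c, Tnfrsf13b and Tnfrsf17 in their summed FPKM (y axis, percent) in each of the 12 libraries (x axis, by host and division group). Tnfrsf13c holds over 55% in all 10 libraries outside Div8pos and 33.0% and 31.0% in the 2 Div8pos libraries, where Tnfrsf17 becomes visible.

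Shares within a library need no scaling between libraries, and were taken on FPKM, which divides by the exon length of 2017 bases for Tnfrsf13c, 868 for Tnfrsf13b and 812 for Tnfrsf17. BAFFR held 70.9 ± 2.0% of the 3 messages in Div0, 66.7 ± 4.5% in Div1, 64.6 ± 6.1% in Div3, 61.8 ± 1.1% in Div5, 57.3 ± 2.7% in Div8neg and 32.0 ± 1.4% in Div8pos. TACI held 29.1 ± 2.0% in Div0, 33.3 ± 4.5% in Div1, 35.3 ± 6.1% in Div3, 38.2 ± 1.1% in Div5, 42.6 ± 2.8% in Div8neg and 63.9 ± 2.2% in Div8pos. BCMA stood at 4.10 ± 0.76% in Div8pos and 0.096 ± 0.051% in Div8neg. For BAFFR and for TACI the step between the CD138 gates was larger than the whole change between Div0 and Div8neg.

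In FPKM the ratio of TACI to BAFFR was 1.89 and 2.11 in the Div8pos libraries (hosts 196 and 197), against 0.687 and 0.806 in Div8neg. Div0 libraries had 0.383 and 0.440. The ratio exceeded 1 in both Div8pos libraries and in no other. With 2 against 2 libraries an exact permutation test cannot go below p = 0.33, so shares and ratios are given without a test. BCMA remained the minor message: its FPKM was 0.0744 and 0.0544 of that of TACI in the Div8pos libraries.

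Tnfrsf13c, the BAFF receptor of mature B cells, had 456 and 421 CPM in Div0, 470 and 399 in Div1, 490.3 and 422 in Div3, 451 and 422 in Div5, 387 and 350.1 in Div8neg, and 200.4 and 185 in Div8pos, hosts 196 and 197 in that order. The groups up to Div5 overlapped one another, and both Div8pos libraries lay far below all others. Relative to all genes it fell 1.91-fold in Div8pos against Div8neg (log2 -0.94 ± 0.09, SE; edgeR adjusted p = 9.6e-08) and by 0.25 in log2 in Div8neg against Div0 (adjusted p = 0.0155). The second call rests on single libraries: its adjusted p was 0.119 without host 196's Div0 library and 0.145 without host 197's Div8neg library.

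Per cell the order differed. Tnfrsf13c counted 16.7 and 18.4 mRNAs per cell in Div0, 26.3 and 31.6 in Div1, 27.7 and 29.4 in Div3, 43.7 and 36.5 in Div5, 47.6 and 46.8 in Div8neg, and 39.8 and 32.6 in Div8pos. Both Div8pos libraries were below both Div8neg libraries but overlapped Div5. The difference of Div8pos from Div8neg was -0.39 in log2 with a 95% interval of -0.84 to 0.06 and did not pass (limma adjusted p = 0.122), while Div8neg rose over Div0 by 1.43 (adjusted p = 1.68e-08), close to the 1.41 of the median gene. Relative to all genes BAFFR therefore fell in Div8neg and Div8pos against Div0, whereas per cell it rose in both. In Div8pos against Div0 the per-cell rise was 1.04 in log2, below the 1.84 of the median gene.

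Tnfrsf13b, the shared receptor for BAFF and APRIL, had 75.2 and 79.7 CPM in Div0, 87.0 and 98.5 in Div1, 95.1 and 119 in Div3, 116 and 116 in Div5, 115 and 122 in Div8neg, and 163 and 168 in Div8pos. Its mean was highest in Div8pos and lowest in Div0, and neither of those groups overlapped its neighbour. Between Div1 and Div8neg neighbouring groups overlapped. It rose 1.40-fold in Div8pos against Div8neg (log2 0.49 ± 0.08, SE; edgeR adjusted p = 8.84e-05) and 1.52-fold in Div8neg against Div0 (adjusted p = 1.66e-05). In Div1 against Div0 the log2 difference of 0.26 missed the threshold (adjusted p = 0.0843) and passed it when host was a term in the fit (adjusted p = 0.0147) or either Div3 library was left out (0.0169 and 0.021).

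On the per-cell scale Tnfrsf13b counted 6.40 and 8.08 mRNAs in Div0, 11.3 and 18.1 in Div1, 12.5 and 19.3 in Div3, 26.2 and 23.4 in Div5, 32.7 and 37.7 in Div8neg, and 75.3 and 68.8 in Div8pos. In each group after Div0 the mean was above that of the group before it. Div8pos against Div8neg gave a log2 rise of 1.03 ± 0.23 (SE; limma adjusted p = 7.33e-05), above the 0.49 of the median gene. Div8neg against Div5 gave 0.50, which missed the threshold (adjusted p = 0.0672) and passed it with host as a term (0.0474) or without either Div1 library (0.0213 for each). Tnfrsf13b was thus the member of the BAFF system that rose on both scales in Div8neg against Div0 and in Div8pos against Div8neg.

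Tnfrsf17, the APRIL receptor of plasma cells, had 142 and 97 reads in the Div8pos libraries, against 5 and 2 reads in Div8neg. All 8 libraries of Div0 to Div5 held 0, 1 or 2 reads each. In CPM this is 11.4 and 8.54 in Div8pos, against 0.349 and 0.153 in Div8neg, and per cell 5.60 and 3.74 mRNAs, against 0.107 and 0.0507. The ratio of summed reads, scaled for library size, was 39.2 in Div8pos over Div8neg, with a 95% interval of 18.8 to 98.6, and 6.42 in Div8neg over Div0, with an interval of 0.825 to 289.2. These intervals cover counting error only. Tnfrsf17 passed the low-count filter only through Div8pos, where it is high, so its call there (edgeR adjusted p = 3.61e-09) had to come out that way and is given as a description.

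**Figure D2:**
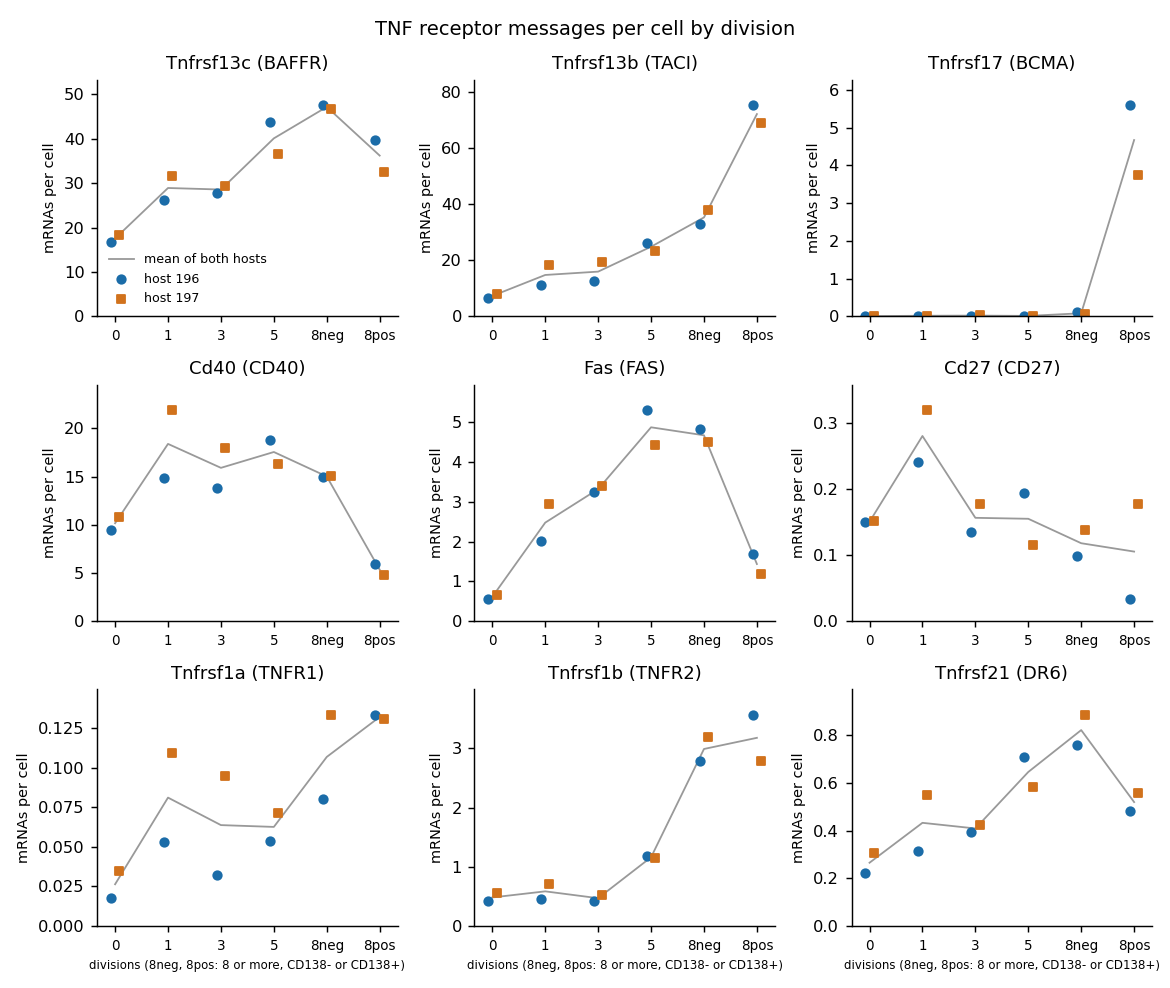
mRNAs per cell (y axis, from 0 in each panel) of the 9 receptor genes by division group (x axis), with 1 point per host and a line through the mean of both hosts. Tnfrsf13b climbs to 75.3 and 68.8 in Div8pos, Tnfrsf17 appears there with 5.60 and 3.74, and Cd40 and Fas drop between Div8neg and Div8pos.

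CD40, the receptor for T cell help, carried a long decline relative to other messages. Cd40 had 216 and 207 CPM in Div0, 222 and 231 in Div1, 204 and 215 in Div3, 162 and 157 in Div5, 101 and 94.3 in Div8neg, and 24.9 and 22.4 in Div8pos. Each of the last 3 groups lay below the group before it with no overlap. It fell by 0.39 in log2 in Div5 against Div3 (edgeR adjusted p = 0.00027), by 0.71 in Div8neg against Div5 (adjusted p = 2.51e-07), and 4.13-fold in Div8pos against Div8neg (SE 0.07 in log2; adjusted p = 7.88e-13).

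Per cell, Cd40 rose in Div1 against Div0 (log2 0.83, limma adjusted p = 0.00277), a call lost without host 196's Div0 library (0.0757) or host 197's Div1 library (0.0776). It averaged 10.2 ± 0.9 mRNAs per cell in Div0, 18.4 ± 5.0 in Div1, 15.9 ± 3.0 in Div3, 17.6 ± 1.7 in Div5 and 15.0 ± 0.1 in Div8neg, with overlap between neighbours from Div1 to Div8neg in order of level. In Div8pos it averaged 5.33 ± 0.85, a fall of 1.49 ± 0.23 in log2 against Div8neg (SE; limma adjusted p = 1.47e-08). Div8pos was also below Div0 (log2 -0.92, adjusted p = 0.000118), and Cd40 was the one receptor of the 9 to fall per cell in that comparison. In Div8neg against Div0 the direction depends on the scale, with a fall of 1.11 in log2 relative to all genes and a rise of 0.56 per cell that missed the threshold without host 196's Div0 library (adjusted p = 0.114) or either Div8neg library (0.0693 and 0.0811).

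FAS, the death receptor of activated lymphocytes, rose early and fell late. Fas had 13.5 and 13.7 CPM in Div0, 32.1 and 33.3 in Div1, 51.3 and 43.5 in Div3, 49.0 and 45.8 in Div5, 35.1 and 30.2 in Div8neg, and 7.59 and 5.99 in Div8pos. Div3 and Div5 were highest and overlapped, and both Div8pos libraries were below the undivided cells. Against Div1, Div3 rose by 0.53 in log2 (edgeR adjusted p = 0.00615), a call that was lost without host 196's Div1 library (0.0592) or host 196's Div3 library (0.0607). It fell by 0.54 in Div8neg against Div5 (adjusted p = 0.000285) and 4.79-fold in Div8pos against Div8neg (log2 -2.26 ± 0.13, SE; adjusted p = 3.11e-10).

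Per cell Fas averaged 0.61 ± 0.08 mRNAs in Div0, 2.48 ± 0.67 in Div1, 3.32 ± 0.11 in Div3, 4.88 ± 0.62 in Div5, 4.68 ± 0.23 in Div8neg and 1.44 ± 0.36 in Div8pos. Div5 and Div8neg, the 2 groups with the highest means, overlapped. Div8pos fell against Div8neg by 1.66 ± 0.23 in log2 (SE; limma adjusted p = 4.41e-10). Against Div0, Div8pos was lower relative to all genes (log2 -0.99, edgeR adjusted p = 2.03e-05) and higher per cell (log2 1.10, limma adjusted p = 5.75e-06). That per-cell rise was below the 1.84 of the median gene.

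Cd27 was a scarce message throughout, with 53 and 39 reads in Div0, 49 and 58 in Div1, 30 and 37 in Div3, 26 and 16 in Div5, 11 and 13 in Div8neg, and 2 and 11 in Div8pos. Its CPM fell 4.13-fold in Div8neg against Div0 (log2 -2.05 ± 0.38, SE; edgeR adjusted p = 0.000158). The Div8pos libraries disagreed, at 0.160 and 0.968 CPM, and the comparison with Div8neg gave an adjusted p of 0.29, or of 0.0105 without host 197's Div8pos library. Per cell the difference of Div8neg from Div0 was -0.21 in log2 (95% interval -0.58 to 0.17), and that of Div8pos from Div0 was -0.38, with an adjusted p of 0.0526, or 0.0285 with host as a term. The sign of the second rests on 1 library, since it was 0.15 without host 196's Div8pos library. Cd27 shares 129 exon bases with the microRNA gene Mir8113 on the same strand, so reads there cannot be assigned to 1 of the 2.

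The 2 receptors for TNF differed in level and in course. Tnfrsf1b, encoding TNFR2, had 45.6 and 50.7 CPM in Div0, 32.6 and 36.5 in Div1, 29.6 and 30.1 in Div3, 49.2 and 53.1 in Div5, 91.5 and 96.3 in Div8neg, and 72.5 and 63.7 in Div8pos. It passed through a low in Div3 and a high in Div8neg, and only Div5 and Div0 overlapped as neighbours in order of level. It fell in Div1 against Div0 (log2 -0.47, edgeR adjusted p = 0.00237), rose in Div5 against Div3 (log2 0.77, adjusted p = 3.13e-05) and in Div8neg against Div5 (log2 0.88, adjusted p = 3.42e-07), and fell 1.38-fold in Div8pos against Div8neg (adjusted p = 5.51e-05).

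Per cell Tnfrsf1b averaged 0.48 ± 0.09 mRNAs in Div0, 0.58 ± 0.19 in Div1, 0.47 ± 0.08 in Div3, 1.16 ± 0.03 in Div5, 2.99 ± 0.28 in Div8neg and 3.18 ± 0.55 in Div8pos. Div8pos and Div8neg overlapped, and their difference of 0.08 in log2, with a 95% interval of -0.37 to 0.52, was not called. Of the 7 myeloid markers, Itgam had means of 11.0 CPM in Div0, 15.2 in Div1, 24.6 in Div3, 66.0 in Div5, 118.1 in Div8neg and 2.07 in Div8pos, so its mean was higher in each group up to Div8neg, while that of Tnfrsf1b was lower in Div1 and Div3 than in Div0 and higher in each group between Div3 and Div8neg. The sum of the 7 markers was 122.5 to 157.7 CPM in Div8neg, 74.3 to 114.9 in Div5 and 9.75 to 10.8 in Div8pos, where Tnfrsf1b was still at 72.5 and 63.7, while Cd14 averaged 0.369 CPM in Div8neg and 0.979 in Div0, and Lyz2 averaged 3.62 CPM in Div8neg and 9.25 in Div0. The part of such cells in the course of Tnfrsf1b was not tested.

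Tnfrsf1a, encoding the death-domain receptor TNFR1, had 17 reads in both libraries of Div0 together, 34 in Div1, 30 in Div3, 19 in Div5, 24 in Div8neg and 18 in Div8pos. Every pair of neighbouring groups in order of CPM overlapped, and it was the one receptor of the 9 for which the test over all 6 groups did not pass (edgeR adjusted p = 0.413). Its per-cell level was 0.132 ± 0.002 in Div8pos, 0.107 ± 0.038 in Div8neg and 0.0264 ± 0.0120 in Div0. Per cell Div8neg rose over Div0 by 0.70 in log2 (limma adjusted p = 5.76e-05). That scale compresses values near the added 0.1: the ratio of the mean per-cell levels was 4.06, and edgeR with spike-in scaling gave a log2 rise of 2.04 ± 0.56 (SE; adjusted p = 0.000351). Relative to all genes the difference of 0.37 in log2 did not pass (edgeR adjusted p = 0.532).

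Tnfrsf21, encoding the death-domain receptor DR6, had no called change relative to other messages before the CD138 split. It had 12.4 and 14.4 CPM in Div0, 11.5 and 14.2 in Div1, 14.2 and 12.4 in Div3, 14.9 and 13.8 in Div5, 12.6 and 13.5 in Div8neg, and 4.96 and 6.43 in Div8pos. Every neighbour before Div8pos overlapped, and both Div8pos libraries lay below all others. It fell 2.30-fold in Div8pos against Div8neg (log2 -1.20 ± 0.17, SE; edgeR adjusted p = 7.91e-06). Per cell the fall was 0.57 in log2 (limma adjusted p = 0.013), which missed the threshold without host 197's Div8neg library (0.118) or host 196's Div8pos library (0.106).

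**Figure D3:**
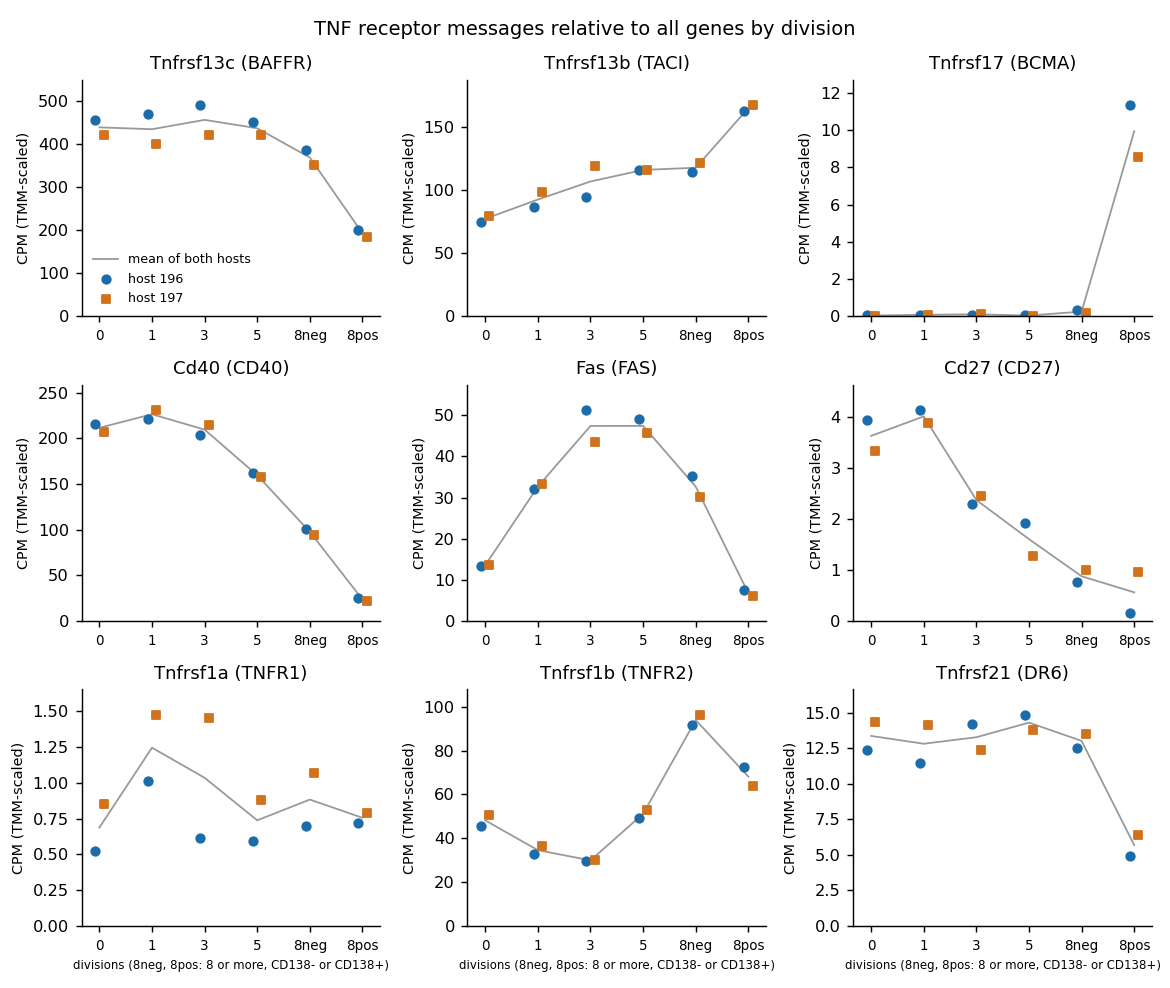
CPM after TMM scaling (y axis, from 0 in each panel) of the 9 receptor genes by division group (x axis), with 1 point per host and a line through the mean of both hosts. Cd40 falls to 24.9 and 22.4 in Div8pos, Fas peaks in Div3 and Div5, and Tnfrsf1b peaks in Div8neg at 91.5 and 96.3.

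Counting the receptor genes per comparison sets them against all genes. Relative to other messages, 2 of 9 changed in Div1 against Div0, where 9.37% of all genes did, Fas upward and Tnfrsf1b downward. In Div3 against Div1 it was 1 of 9 (Fas, upward), where 3.42% of all genes changed. In Div5 against Div3 Tnfrsf1b rose and Cd40 fell, 2 of 9 against 26.5% of all genes. Tnfrsf1b rose and Tnfrsf13c, Cd40 and Fas fell in Div8neg against Div5, 4 of 9 against 53.4% of all genes. The fall of Tnfrsf13c there, 0.24 in log2 with an adjusted p of 0.0247, was lost without host 196's Div5 library (0.166) or host 197's Div8neg library (0.199).

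Over the whole span to Div8neg against Div0, Tnfrsf13b, Fas and Tnfrsf1b rose and Tnfrsf13c, Cd40 and Cd27 fell, 6 of 9 against 71% of all genes (35.3% higher and 35.7% lower). In Div8pos against Div8neg, 7 of 9 changed against 72% of all genes (36.7% higher and 35.3% lower): Tnfrsf13b and Tnfrsf17 rose, and Tnfrsf13c, Cd40, Fas, Tnfrsf1b and Tnfrsf21 fell. In Div8pos against Div0 the count was 8 of 9, against 82.4% of all genes, with Tnfrsf13b, Tnfrsf17 and Tnfrsf1b higher. Over all 6 groups 8 of 9 varied, against 90.9% of all genes. The shares of receptor genes that changed in Div8pos against Div8neg and in Div8neg against Div0 are near the background shares, so the counts say nothing particular about receptors. These comparisons share libraries, Div0 and Div8neg each standing in several. On both scales the counts for Div8pos, and the count over all 6 groups, include Tnfrsf17, whose call had to come out that way.

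On the per-cell scale 7 of 9 receptor genes rose in Div1 against Div0, where 77.1% of all genes changed and 76.9% rose, and the exceptions were Tnfrsf17 and Tnfrsf1b. Without host 196's Div0 library, or without host 197's Div1 library, that count was 1. In Div3 against Div1 limma called 0 of 9, with 0.498% of all genes called. At an unadjusted p under 0.05 limma had 1 (Cd27), and edgeR with spike-in scaling also called 0. Tnfrsf13b, Fas, Tnfrsf1b and Tnfrsf21 rose in Div5 against Div3, where 43% of all genes changed and 42.6% rose, but this count of 4 was 1 without host 196's Div3 library or without either Div5 library. The call of Fas there (limma adjusted p = 0.0475) was lost without any 1 of 10 libraries, those of Div1 being the exceptions.

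Tnfrsf17 and Tnfrsf1b were called higher per cell in Div8neg against Div5, 2 of 9 where 45.7% of all genes changed and 42.2% rose. For Tnfrsf17 that is 7 reads in Div8neg and 1 in Div5, it was not called on the relative scale (edgeR adjusted p = 0.0741), and the per-cell call was lost without host 196's Div8neg library (0.0637) or with a pseudocount of 1 (0.363). In Div8neg against Div0 all but Cd27 were called higher, 8 of 9 where 90% of all genes changed and 88.3% rose, with Tnfrsf17 again at 7 reads against 1 and lost with a pseudocount of 1 (0.26). For Div8pos against Div8neg 5 of 9 changed, where 68.3% of all genes did, with 52% higher and 16.3% lower: Tnfrsf13b and Tnfrsf17 rose, and Cd40, Fas and Tnfrsf21 fell. In Div8pos against Div0 7 rose and Cd40 fell, 8 of 9 where 89.1% of all genes changed, 82.4% upward and 6.65% downward. Cd40, Fas and Tnfrsf21 thus fell on both scales between the CD138 gates, while the falls of Tnfrsf13c and Tnfrsf1b were called on the relative scale and not per cell.

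**Figure D4:**
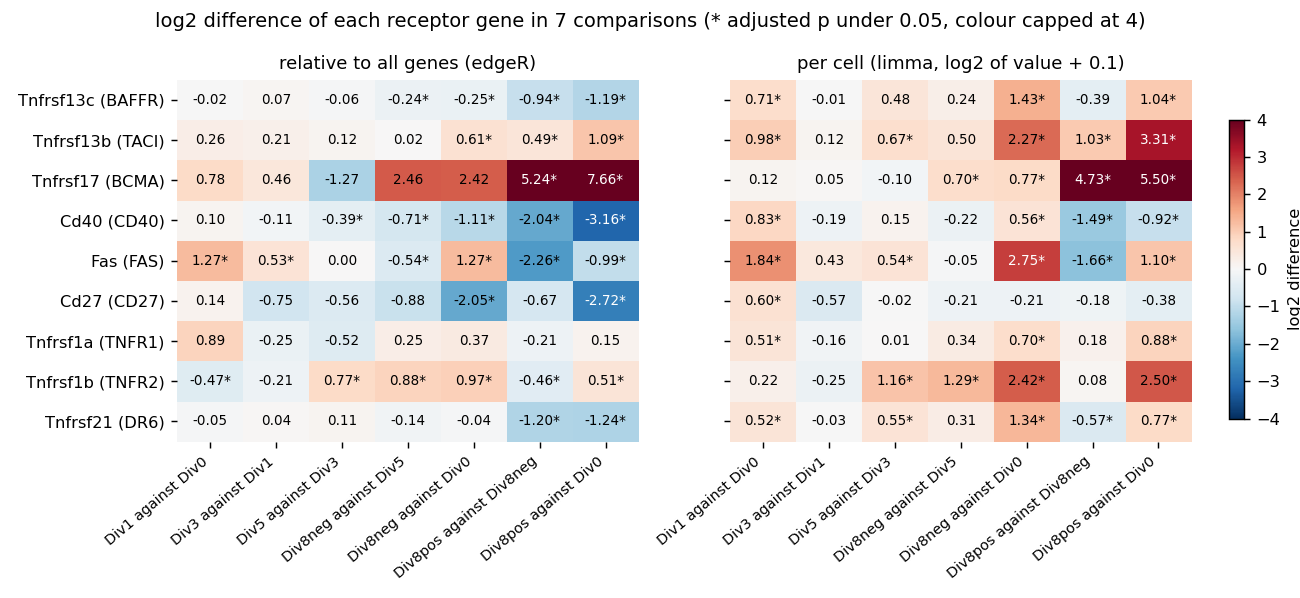
log2 difference of each receptor gene (rows) in the 7 comparisons (columns), relative to all genes at left and per cell at right, the first-named group over the second. Stars mark an adjusted p under 0.05; in Div8pos against Div8neg 7 receptor genes are starred at left and 5 at right.

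The 5 B cell markers all fell together with Cd40, Fas and Tnfrsf13c in Div8pos against Div8neg, with a median log2 fold change of -2.79, and all 5 plasma cell markers rose, with a median of 2.63. Pax5, the transcription factor of B cell identity, averaged 9.46 CPM in Div8pos and 236.5 in Div8neg, and Prdm1 averaged 324.7 CPM in Div8pos and 58.4 in Div8neg. The part of these programs in the receptor changes was not tested.

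Genes whose CPM tracked a receptor most closely were ranked by Pearson r of log2 CPM over the 12 libraries, among 8780 genes with a mean of at least 10 CPM. Cd40 was tracked by Fcer2a, which encodes the low-affinity IgE receptor CD23, with an r of 0.999, followed by Lpcat1 and Snx8. Tnfrsf13c was tracked by Sema4d (0.996), Zfp26 and Dock10, Tnfrsf13b by Tspan31 (0.978), Kcnn4 and Ska3, and Tnfrsf17 by Nf2 (0.989), Bpgm and Tm9sf2. Fas was nearest to Nedd4 (0.993), Tex9 and A530032D15Rik, and Tnfrsf1b to Chchd10 (0.976), Por and Aldoa. Tnfrsf21 had Klf3 (0.977) and Nucb2 among its 3 nearest. Cd27 had Mib2 (0.971), Bnip3l and Secisbp2l, and for Tnfrsf1a no gene exceeded Nabp2 at 0.717, with Ticam2 and Tbc1d10a next. These values describe 12 libraries that share 2 hosts and 6 gates, and in such data many genes follow the same steps. The floor of 10 CPM was not set on the receptors themselves. Tnfrsf17 had at most 5 reads in any library outside Div8pos, so its r rests on the 2 Div8pos libraries against the rest.

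Most ligand genes of the 9 receptors were near undetected in the same cells. Over both libraries of a group, Tnfsf13b (BAFF) had at most 10 reads, Cd70 at most 10, Cd40lg at most 2, Fasl at most 3 and Tnfsf13 (APRIL) at most 1, and none of these 5 was tested. Tnf and Lta, the genes of TNF and lymphotoxin alpha, were expressed. Tnf averaged 3.48 ± 0.18 CPM in Div8pos and 38.7 ± 3.4 in Div8neg, and Lta averaged 1.16 ± 0.28 CPM in Div8pos and 62.5 ± 9.3 in Div8neg. Both fell in Div8pos against Div8neg, 11.1-fold for Tnf (edgeR adjusted p = 3.16e-12) and 53.0-fold for Lta (adjusted p = 3.91e-12), and both also fell per cell (log2 -2.78 and -4.82). Lta also fell by 0.86 in log2 in Div8neg against Div0 relative to all genes, and rose per cell by 0.81 in log2.

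Of 19 other TNF receptor genes 12 were tested. In Div8pos against Div8neg 2 rose and 8 fell (median log2 -1.24), against 36.7% of all genes higher and 35.3% lower. Ngfr, the nerve growth factor receptor, had 1 read in Div8pos and 167 in Div8neg, a ratio of 0.00688 with a 95% counting interval of 0.000173 to 0.0389. Relt fell 6.12-fold, to 15.0 ± 0.6 CPM in Div8pos, against 91.8 ± 0.7 in Div8neg. Tnfrsf26 fell 4.96-fold and Tnfrsf14, encoding HVEM, 3.49-fold. Tnfrsf19 fell to 4 reads in Div8pos, against 24 in Div8neg, a call lost without host 197's Div8neg library (adjusted p = 0.197) or host 196's Div8pos library (0.0925).

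The 2 that rose were Tnfrsf10b, the mouse TRAIL death receptor, at 13.9 ± 0.8 CPM in Div8pos and 6.15 ± 0.71 in Div8neg (edgeR adjusted p = 1.12e-05), and Tnfrsf8, encoding CD30, at 4.02 ± 1.33 CPM in Div8pos and 2.12 ± 0.14 in Div8neg (adjusted p = 0.0102). Both were named after their values were seen. In Div8neg against Div0, 4 rose and 4 fell, where 35.3% of all genes were higher and 35.7% lower. Ngfr rose 2.73-fold, and with smaller changes Tnfrsf10b and Relt rose and Tnfrsf14 fell. Tnfrsf8 was 5.22-fold higher, with 58 reads in Div8neg and 10 in Div0. It passed the low-count filter only through Div8neg and Div8pos, where it is high. That call, counted among the 4 that rose, is therefore given as a description. Relative to all genes Tnfrsf18 (GITR) fell 5.04-fold, Tnfrsf12a (FN14) by 1.61 in log2 and Tnfrsf4 (OX40) 2.08-fold. Tnfrsf12a had 12 reads in Div8neg and 34 in Div0. It passed the low-count filter only through Div0, where it is high, so its call is given as a description. Per cell, Tnfrsf18 still fell (log2 -0.66), Tnfrsf4 rose (log2 0.46) and Tnfrsf12a was at 0.02 (adjusted p = 0.899).

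Downstream, all 21 tested genes of the TRAF and NF-kB arm fell relative to other messages in Div8neg against Div0 (median log2 -0.59, against 35.7% of all genes lower), whereas per cell 19 of the 21 rose and 0 fell at a median of 1.07, below the 1.41 of all genes, of which 88.3% rose. Map3k14, the NIK kinase that BAFFR and CD40 release for the alternative NF-kB pathway, averaged 58.9 ± 3.0 CPM in Div8neg and 144.6 ± 4.5 in Div0. Rel, encoding c-Rel, averaged 36.1 ± 0.9 CPM in Div8neg and 84.6 ± 5.8 in Div0. Ikbkb, Traf5 and Birc3 fell 1.96-fold, 1.92-fold and 1.92-fold on the relative scale, and each rose per cell.

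In Div8pos against Div8neg 15 of the 21 fell and 3 rose (median log2 -0.60), where 35.3% of all genes were lower and 36.7% higher. Per cell 5 fell and 6 rose (median -0.05, against 0.49 for all genes), where 16.3% of all genes were lower and 52% higher. Traf1, an adapter that binds TNFR2 and CD40 complexes, fell by 3.17 in log2, to 23.4 ± 0.6 CPM in Div8pos, against 210 ± 12 in Div8neg (edgeR adjusted p = 3.31e-14). Rel fell 4.91-fold, Traf5 2.71-fold, Map3k14 2.49-fold and Nfkb1 2.32-fold, and these 5 are also the ones that fell per cell. The 3 that rose on the relative scale were Traf4, Traf6 and Chuk, with log2 changes of 0.52, 0.40 and 0.32, named after their values were seen.

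**Figure D5:**
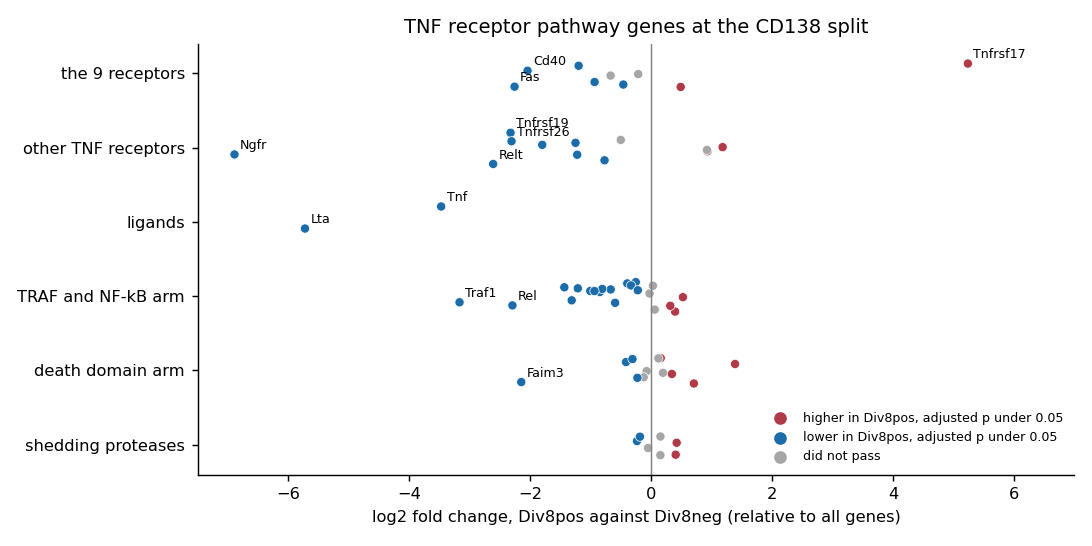
log2 fold change in Div8pos against Div8neg relative to all genes (x axis) of the tested genes of each list (rows), 1 point per gene, coloured by direction where the adjusted p was under 0.05. Lta and Tnf both lie left of -3, 15 of 21 TRAF and NF-kB genes fall, and the proteases stay within 0.42 of 0.

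Among 12 genes that act beneath the death domains, 4 rose and 4 fell in Div8pos against Div8neg, where 36.7% of all genes were higher and 35.3% lower. Faim3, which encodes the IgM Fc receptor and is named for inhibition of FAS-driven death, fell by 2.15 in log2, to 9.51 ± 1.36 CPM in Div8pos, against 42.1 ± 5.8 in Div8neg, and Tradd fell by 0.42 in log2 relative to all genes (per cell 0.13 in log2, adjusted p = 0.612). Mlkl, the effector of necroptosis, rose 2.62-fold and its kinase Ripk3 1.63-fold, and Cflar, the inhibitor of caspase-8 activation, 1.27-fold. The other called genes were Ripk1 (log2 0.16), Casp8 (log2 -0.31) and Bid (log2 -0.23), and per cell only the fall of Faim3 was called among the 4. Against Div0, 2 of the 12 rose and 8 fell in Div8neg, where 35.3% of all genes were higher and 35.7% lower. There Faim3 fell 11.9-fold, to 42.1 ± 5.8 CPM in Div8neg, against 498.9 ± 4.2 in Div0. Mlkl and Faim rose 1.49-fold and 1.30-fold, and Ripk3 and Bid fell 1.63-fold and 1.36-fold on the relative scale and rose per cell.

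The last list holds proteases that cut receptors from the surface. In human cells BCMA is shed by gamma-secretase, and TACI by ADAM10. Of 7 genes, 2 rose and 2 fell in Div8pos against Div8neg, where 36.7% of all genes were higher and 35.3% lower. Adam10 averaged 194.9 ± 8.7 CPM in Div8pos and 145.6 ± 7.2 in Div8neg (1.34-fold, edgeR adjusted p = 0.000163), and the gamma-secretase subunit Ncstn 170.9 ± 17.5 CPM in Div8pos and 129.2 ± 1.8 in Div8neg (1.32-fold, adjusted p = 4.15e-05). Psen2 and Aph1a fell by 0.24 and 0.19 in log2, and neither passed per cell (adjusted p = 0.215 and 0.153). In Div8neg against Div0, 2 rose and 3 fell, where 35.3% of all genes were higher and 35.7% lower, with Aph1a and Adam17 higher by 0.58 and 0.17 in log2 and Aph1b, Psen2 and Psenen 3.26-fold, 1.60-fold and 1.15-fold lower relative to all genes. Per cell Aph1a, Adam17, Psen2 and Psenen rose in that comparison.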

How the data were processed

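RNA was measured in 12 libraries (6 division groups in each of 2 hosts), grouped by the sample titles. Per the labels' protocols, ERCC RNA was added to 40000 sorted cells before extraction, and a kit that keeps the strand was used. The submitters' processing notes name the mm9 build, Picard and R 3.2.2. The aligner is not given in the sources used here, nor whether counting used strand. Exon reads of the UCSC KnownGenes set make up the deposited counts, as the deposited readme has it. In the deposited FPKM values exon length divides RPM. The deposited mRNAs per cell, a signal scaled to the spike-ins by the authors, equal FPKM times 1 factor per library (0.139 to 0.769), as checked in every library. Genes without a symbol (90, holding 0.0498 to 0.0943% of counts) were kept under their identifiers.

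Counts were tested in R 4.3.3 with edgeR 4.0.16: filterByExpr at a minimum count of 10, leaving 12049 of 21761 genes, TMM factors of 0.946 to 1.02, and glmQLFit and glmQLFTest over all 12 libraries with group means. mRNAs per cell of the same genes were tested with limma 3.58.1 with trend, on log2 of the value plus 0.1. The functions were first tested on simulated data. Alternatives were DESeq2 1.42.0, DESeq2 size factors in edgeR, spike-in scaling, no filter on low counts or values, only the 2 groups compared, pseudocounts of 0.01 and 1, host as a block, and each library left out in turn. Hosts pair the libraries, since each host animal gave 1 library to every group. Host deviations correlated between groups with r of 0.0204 to 0.299 over 15 pairs of groups (median 0.148).

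The 9 receptor genes, the gene lists and the markers were chosen with earlier results of these data known. All 9 receptor genes passed the filter and are named in full. Of each list up to 5 called genes with the largest change in Div8pos against Div8neg, then in Div8neg against Div0, are named, and for each receptor the 3 genes with the highest r among those of at least 10 CPM (prior count 2). Some genes of the lists and rankings are not reported here, and list counts and sums leave them out. Exon overlaps were taken from the GENCODE vM21 annotation and promoter sequences from RefSeq (GRCm38.p6). PCR copies were not removed by molecular tags, so counting intervals (95%) cover counting error only.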

Additional observations from a re-analysis of the deposited data

How the results depend on the processing

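Scaling to the spike-ins in edgeR turned the direction of 27 log2 fold changes that passed the threshold on either scaling, the only such reversals among the alternatives run; the cause lies in the construction, since that scaling adds the rise in RNA per cell to every gene. Where a receptor gene did not pass under spike-in scaling, its edgeR adjusted p is given, and its call was lost rather than turned. For receptor genes the spike-in values in Div1 against Div0 were 0.71 for Tnfrsf13c, 0.27 for Tnfrsf1b (adjusted p = 0.254) and 0.70 for Tnfrsf21. In Div5 against Div3 Cd40 had 0.14 (adjusted p = 0.592). In Div8neg against Div5 Tnfrsf13c had 0.24 (adjusted p = 0.371). In Div8neg against Div0 the values were 1.44 for Tnfrsf13c, 0.57 for Cd40 and 1.65 for Tnfrsf21. In Div8pos against Div8neg Tnfrsf1b had 0.12 (adjusted p = 0.635). In Div8pos against Div0 the values were 1.09 for Tnfrsf13c, 1.28 for Fas and 1.02 for Tnfrsf21. For other genes in Div8neg against Div0 they were 1.24 for Bid, 0.75 for Birc3, 0.72 for Ikbkb, 0.83 for Lta, 0.39 for Map3k14, 1.01 for Psen2, 1.48 for Psenen, 0.46 for Rel, 0.98 for Ripk3, 0.067 for Tnfrsf12a, 0.61 for Tnfrsf4 and 0.74 for Traf5, and in Div8pos against Div8neg 0.40 for Aph1a, 0.35 for Psen2 and 0.17 for Tradd. By limma per cell, Map3k14 (adjusted p = 0.112), Rel (0.0579) and Tnfrsf12a (0.899) did not pass in Div8neg against Div0. Nor did Aph1a (0.153), Psen2 (0.215) and Tradd (0.612) in Div8pos against Div8neg, so no per-cell rise was called for these genes there.

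The number of receptor genes called under spike-in scaling was 7 for Div1 against Div0, 0 for Div3 against Div1, 4 for Div5 against Div3 and 2 for Div8neg against Div5. Leaving out single libraries, it was 0 to 1 in Div3 against Div1. Per cell, the count without a filter was 4 in Div1 against Div0 and 0 in Div5 against Div3, it was 1 to 8 and 1 to 5 in these comparisons with libraries left out, and it was 1 in Div8neg against Div5 with a pseudocount of 1. The cause of these was not tested. The other counts of receptor genes stayed within 1.5 times. With host as a replicate block, 3 receptor genes were called in Div1 against Div0 relative to all genes, 3 per cell in Div8neg against Div5 and 9 per cell in Div8pos against Div0, by the calls given above; no other receptor call changed under the block. Over all genes the block raised the calls to 1713 (1129 without it) in Div1 against Div0, to 755 (412 without it) in Div3 against Div1 and to 115 (60 without it) there per cell.

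Shares by raw counts, which favour longer messages, were for Div0, Div1, Div3, Div5, Div8neg and Div8pos 84.96, 82.27, 80.85, 78.95, 75.67 and 52.33% for BAFFR and 15.03, 17.71, 19.13, 21.04, 24.28 and 44.98% for TACI, and for BCMA 0.01434% in Div1, 0.0188% in Div3 and 2.696% in Div8pos. By reads BAFFR thus stays ahead of TACI in Div8pos. Depth limits Tnfrsf17 outside Div8pos (at most 5 reads in a library), Tnfrsf1a (at most 22) and Cd27 (at most 58). Counts over all genes moved by more than 1.5 times under 28 alternatives, all between successive groups and none between Div8pos and Div8neg or Div0.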
